A study of Drosophila melanogaster with 2 samples.

Results

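Of the 1814 peaks in the conservative peak list of a CG10348 ChIP-seq experiment, 1799 lay on the main chromosome arms, and 384 of these (21.3%, 95% Wilson interval 19.5 to 23.3) had their summit in an intron at a distance of more than 1 kb and at most 5 kb from a transcription start site (TSS). A peak entered this set when its summit was more than 1 kb and at most 5 kb from the nearest TSS of any protein-coding transcript, inside a protein-coding gene, and in no exon of one. They are called proximal intronic peaks here. Among the conservative peaks, the choice used position alone and no measured value. At the near edge, the first summits kept lay 1003, 1003 and 1010 bp from a TSS, in crb, sau and CG6330, with pooled signals of 97.5, 87.2 and 113, and the closest intronic summits left out lay 991, 993 and 994 bp away, in mtgo, spir and Fili, with 88.1, 76.9 and 67.9. At the far edge the last ones kept lay 4972, 4979 and 4983 bp away, in CG3764, Swip-1 and p130CAS, with 65, 59.4 and 56.3, and the first ones left out lay 5035, 5038 and 5051 bp away, in shep, Lrch and dnt, with 262, 105 and 95.8. These genes were named for their place at the edges and not for their signal.

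All samples formed 1 group of 2 biological replicates. They were whole Drosophila melanogaster pupae aged 2 days of the strain CG10348-GFP, in which a transgene supplies CG10348 joined to eGFP, with chromatin fragmented by sonication and precipitated by an antibody to GFP. The measurements therefore average over every tissue of the pupa, and fewer cells with a bound site and less binding per cell cannot be told apart. No second genotype, age or treatment was present, the control was not analysed here, and the lists held no read counts, so that the depth is unknown and no test between conditions was possible.

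CG10348 is a predicted C2H2 zinc-finger gene. C2H2 zinc fingers are small zinc-binding folds that, in tandem, read short DNA sequences, and many fly proteins of this class are transcription factors. In Drosophila, introns close to a gene's start, and first introns above all, often contain enhancers, the sequences that direct where and when the gene is transcribed. A summit in an intron does not show which gene, if any, the site regulates, so the gene around a summit is called only its host gene.

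The 100 bp at the summits of 7 of the strongest peaks are printed first, because the summits of these peaks were rich in A and T. They were chosen among the 25 strongest and not by rank alone. All sequences are from the + strand of the RefSeq genome of the dm6 assembly and are named by host gene, and peaks of 1 chromosome arm are not printed. Capitals mark unbroken runs of at least 6 A or T.
CG11050: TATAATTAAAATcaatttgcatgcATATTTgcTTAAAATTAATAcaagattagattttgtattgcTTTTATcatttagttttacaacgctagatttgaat
Trl: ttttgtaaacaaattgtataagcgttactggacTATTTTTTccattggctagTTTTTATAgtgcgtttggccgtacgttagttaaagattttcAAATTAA
CG32772: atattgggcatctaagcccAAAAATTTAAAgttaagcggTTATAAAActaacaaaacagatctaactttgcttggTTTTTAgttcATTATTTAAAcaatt
norpA: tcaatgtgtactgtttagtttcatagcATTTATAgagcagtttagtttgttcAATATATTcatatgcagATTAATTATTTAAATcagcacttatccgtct
CG9837: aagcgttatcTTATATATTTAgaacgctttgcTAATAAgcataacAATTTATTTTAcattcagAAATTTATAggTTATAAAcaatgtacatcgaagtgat
ImpL2: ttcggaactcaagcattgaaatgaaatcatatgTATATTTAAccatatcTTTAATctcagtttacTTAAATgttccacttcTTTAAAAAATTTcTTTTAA
neur: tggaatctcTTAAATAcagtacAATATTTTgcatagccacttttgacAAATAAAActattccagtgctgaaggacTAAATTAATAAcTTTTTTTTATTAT
The windows lie at chr2L:6612662-6612761, chr3L:14759473-14759572, chrX:4910328-4910427, chrX:4324951-4325050, chr3R:8811625-8811724, chr3L:4228321-4228420 and chr3R:9031957-9032056, in the order printed. In the CG11050 window 21% of bases were G or C, and in the Trl window, the highest of these 7, it was 30%. The windows centred 300 bp to each side of the same summits held between 39% G and C, at norpA, and 60.5%, at ImpL2. The longest single run of A and T in the 7 windows was 15 bp, at norpA. The 7 do not give the spread among the strongest peaks. Peaks stronger than that of ImpL2 that were left out include CG3726, with 32% G and C at the summit and 36% in its flanks. CG32264 had 32% and 38.5%, and upSET had 30% and 43.5%.

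The G and C content fell sharply at the summits. The 100 bp at the summit held 35.3% G and C on average (SD 9.49 over 384 peaks), and the windows 300 bp to each side held 44.4% (SD 6.5). The median difference of a summit from its own flanks was -11 percentage points (quartiles -16.6 and -3; 95% interval of the median -12 to -9.5), and the mean was -9.1 (SD 12.4). In 308 of 384 peaks (80.2%, interval 75.9 to 83.9) the summit was the poorer in G and C. Ranked regions that met the same location rule and did not pass the authors' threshold on the irreproducible discovery rate (IDR, a measure of how alike a region ranks in both replicates) had the opposite difference: across 17861 of them the summit held 43.5% and the flanks 41.4%, and 40% of summits were below their flanks (39.3 to 40.7). Summits of conservative peaks 251 to 1000 bp from a TSS were below their flanks in 78% (73.5 to 81.9), and those in introns beyond 5 kb in 81.8% (76.7 to 86), so that the 3 intervals overlap. The dip was therefore shared with peaks on either side of this distance range.

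**Figure D1:**
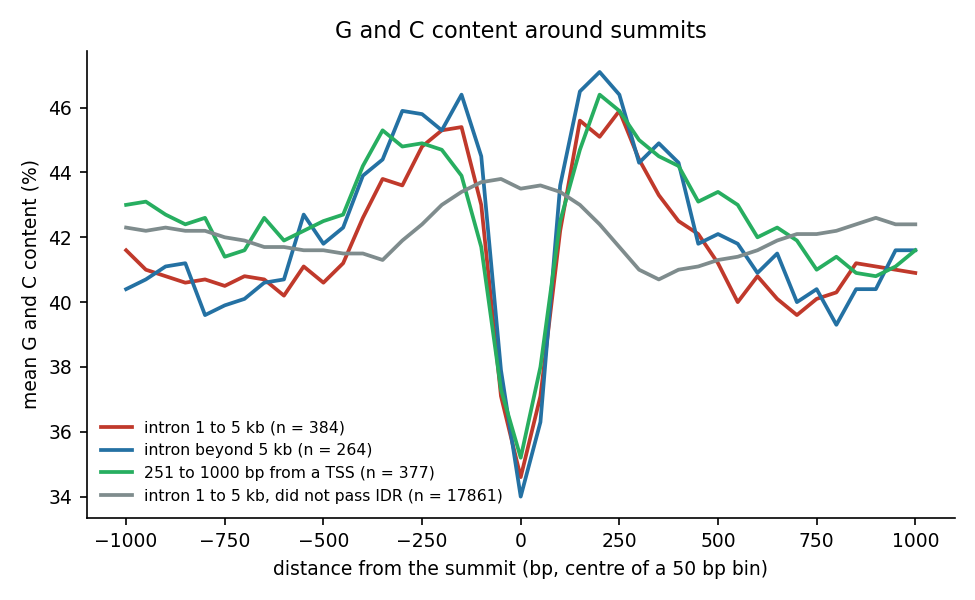
Mean G and C content (%) in 50 bp bins against the distance from the summit (bp) for proximal intronic peaks (n = 384), peaks in introns beyond 5 kb (n = 264), peaks 251 to 1000 bp from a TSS (n = 377) and ranked regions at the location of the proximal intronic peaks that did not pass IDR (n = 17861). The 3 peak sets run together in a dip about 200 bp wide at the summit, with shoulders above the level at 1000 bp, and the regions that did not pass show a low broad rise there instead.

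The dip was deeper in stronger peaks. Ordered by pooled signal and split into 4 sets of 96, the peaks had mean summit G and C of 32%, 33.2%, 35.7% and 40.4% from the strongest set to the weakest, while their flanks stayed between 43.3% and 46.3%. In the weakest set 20 peaks were second calls, which rested on the same pair of replicate regions as a stronger peak close by, and without them the mean was 38.3% (76 peaks). A run of at least 12 A or T occurred in 97 of the 384 summit windows (25.3%) and in 13.5% of their flank windows. In the regions that did not pass it occurred in 13.7% of summit windows.

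Short A and T words were more frequent at the summit than beside it. The windows compared for words, here and below, were not matched for G and C content. Its mean was 35.3% at the summits, 44.4% in their flanks and 43.5% at summits that did not pass. Whether any word differed beyond this base composition was not tested. AAATAT on either strand was present in 109 of 384 summit windows (28.4%, 24.1 to 33.1), in 13.8% of their flank windows and in 14.6% of the equally long summit windows of the regions that did not pass (14.1 to 15.1). TTAAAA was present in 27.9% (23.6 to 32.6), 10.4% of flank windows and 13.2% of windows that did not pass (12.7 to 13.7). TTTAAA was present in 16.4% (13 to 20.4), 4.17% and 7.21% (6.84 to 7.59). These 3 words can overlap one another in a window. By sets of 96 from the strongest to the weakest, AAATAT was present in 34, 36, 26 and 13 windows, TTAAAA in 33, 25, 26 and 23, and TTTAAA in 23, 15, 13 and 12. TAATTA, the core read by many homeodomain proteins, was present in 9.38% of the summit windows (6.85 to 12.7), in 4.43% of flank windows and in 6.68% of the windows that did not pass (6.32 to 7.05), so that its interval reaches the last of these.

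GATAA, the core read by GATA factors, was present in 101 of 384 summit windows (26.3%, 22.1 to 30.9), against 14.5% of flank windows and 17.4% of windows that did not pass (16.8 to 17.9). As above, these windows were not matched for G and C content, and a difference of GATAA beyond base composition was not tested. In peaks 251 to 1000 bp from a TSS it was present in 19.4% (15.7 to 23.7) and in those of introns beyond 5 kb in 20.5% (16 to 25.7), and both of these intervals overlap that of the proximal intronic peaks. It was not confined to the strongest: from the strongest 96 to the weakest, 25, 32, 25 and 19 windows held it. Of the 101 windows, 86 held 1 match, 11 held 2 and 4 held 3. The 4 strongest of those open to printing with 2 or more matches are shown to place those matches, with each GATAA or its complement TTATC in capitals.
CG34417: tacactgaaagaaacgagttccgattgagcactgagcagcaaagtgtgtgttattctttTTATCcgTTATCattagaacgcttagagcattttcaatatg
eff: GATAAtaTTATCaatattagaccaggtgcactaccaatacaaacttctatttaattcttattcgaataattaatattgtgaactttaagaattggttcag
C3G: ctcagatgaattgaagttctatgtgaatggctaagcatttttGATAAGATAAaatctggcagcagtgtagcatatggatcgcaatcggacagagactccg
Unc-76: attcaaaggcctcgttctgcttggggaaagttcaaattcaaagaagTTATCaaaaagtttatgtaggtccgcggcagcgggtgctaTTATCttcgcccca
They lie at chrX:6549813-6549912, chr3R:14738593-14738692, chrX:6793549-6793648 and chrX:2087659-2087758, in the order printed. The eff gene encodes a ubiquitin-conjugating enzyme and C3G an exchange factor for the small GTPase Rap1. Their peaks had pooled signals of 166 at eff (87 in replicate 1 and 77.5 in replicate 2) and 148 at C3G (53 and 102). The C3G window is the only one of the 384 with GATAAGATA, the tandem form described for the mammalian zinc-finger protein EVI1.

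GCCAT and CACACACA were less frequent at the summit than beside it, again in windows not matched for G and C content. GCCAT, the core of the site read by the Polycomb-group protein Pho, was present in 9.9% of summit windows (7.29 to 13.3), in 19.7% of flank windows and in 22.9% of windows that did not pass (22.3 to 23.5). CACACACA was present in 6 summit windows (1.56%, 0.718 to 3.37), in 6.38% of flank windows and in 3.22% of windows that did not pass (2.98 to 3.49). Its interval overlaps the last of these. CTTTGAT, read by TCF, went the other way and was present in 12 windows (3.12%, 1.8 to 5.38), with 0.911% in flank windows and 1.7% in windows that did not pass (1.52 to 1.9), so that these intervals overlap. No summit window held TATCGATA (the DREF site), CCGGAAG (Ets), GGTCACACT (M1BP) or GACAAGATA (an EVI1 site), each of which has a share of up to 0.781% by the limit of 3 counts. Each of the 29 words searched was matched on both strands, and the remaining ones were between 0.26% and 10.2% of summit windows.

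Not every peak had the dip. The 2 strongest peaks open to printing whose summit was richer in G and C than its flanks are printed for contrast, with runs of at least 6 A or T in capitals as before.
CG8034: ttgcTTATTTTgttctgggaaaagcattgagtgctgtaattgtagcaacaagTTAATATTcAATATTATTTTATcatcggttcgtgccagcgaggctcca
Wwox: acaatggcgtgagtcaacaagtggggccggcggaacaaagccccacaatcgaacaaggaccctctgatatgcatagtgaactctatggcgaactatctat
They lie at chrX:19289484-19289583 and chr2L:8000665-8000764, in the order printed. At CG8034 the summit had 37% G and C and its flanks 33%, with a pooled signal of 189 (88.9 in replicate 1 and 99 in replicate 2). At Wwox, which encodes a WW-domain oxidoreductase, the summit had 50% and its flanks 43%, no run of 6 A or T was present, and the pooled signal was 174 (94.2 and 79.3). Both were named after their values were seen.

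The median signal of the proximal intronic peaks was close to that of introns beyond 5 kb and lower than that within 250 bp of a TSS. Signal is the authors' value for a region, with a scaling that is not given in the sources used here. The median pooled signal was 80.8 (quartiles 64.9 and 117, range 2.03 to 651; 95% interval of the median 78.2 to 86), against 88.1 over the other 1415 conservative peaks (85.5 to 91.2). It was 80.1 for introns beyond 5 kb (76.2 to 85.8), 78 for intergenic summits beyond 1 kb (74 to 83.9), 59 for summits in exons (55.6 to 60.8), 89 for summits 251 to 1000 bp from a TSS (83.3 to 94.2) and 108 for summits within 250 bp (99.1 to 117). The upper quartile was 103 for introns beyond 5 kb, against 117 for the proximal intronic peaks. Of the 100 strongest conservative peaks, 14 were proximal intronic, 3 lay in introns beyond 5 kb, 18 at 251 to 1000 bp and 57 within 250 bp of a TSS. Of all conservative peaks these sets made up 21.3%, 14.7%, 21% and 26.8%, in the same order. Regions of the same location that did not pass had a median of 16, with a highest value of 124. Passing IDR depends on how regions rank in the replicates, so this last comparison is not independent of the selection.

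**Figure D2:**
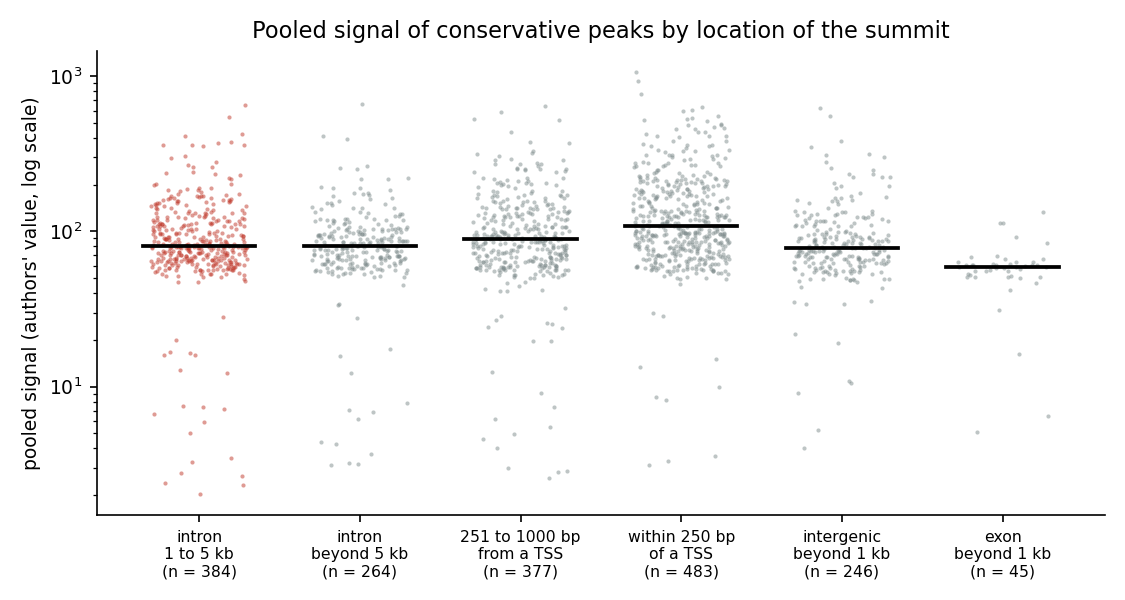
Pooled signal (the authors' value, log scale) of every conservative peak on the main arms by location of its summit, with a horizontal line at each median. The proximal intronic peaks are at the left in red with a median of 80.8, and each set except exons has an upper tail of strong peaks and a thin scatter below 50.

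The thin lower tail had a particular form. Of the 384 peaks, 25 had a pooled signal under 50, and 20 of these were the second calls named above, whose stronger peak lay 199 to 252 bp away. Their own signals ran from 2.03 to 19.9, and the lowest signal among the remaining 364 peaks was 28. The 20 summits had a mean G and C of 48.4%, against 34.6% in the 364. With the 20 left out the median signal was 83.1. Second calls made up 5.21% of the proximal intronic peaks (3.4 to 7.91), against 4.28% of all conservative peaks (3.44 to 5.32). For the 360 other peaks that had a region in both replicates' lists, the pooled signal was close to the sum of the replicate signals: the ratio of one to the other had a median of 1 and quartiles of 0.97 and 1.03.

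The width of a peak went with its strength. The most frequent width, 336 bp with the summit at an offset of 168, was found in 354 peaks (92.2%), whose signals ran from 2.03 to 203. The 30 narrower peaks had signals from 161 to 651, and the narrowest was 84 bp wide.

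Each replicate's own list recovered a little more than 50% of these peaks. A peak of replicate 1's own thresholded list overlapped 222 of the 384 by at least 1 bp (57.8%, 52.8 to 62.7), against 61.0% of all conservative peaks. A peak of replicate 2's list overlapped 195 (50.8%, 45.8 to 55.7), against 53.6%. Both did so for 147 (38.3%, 33.6 to 43.2), against 43.6%, and neither for 114 (29.7%, 25.3 to 34.4), against 29%. The authors' other thresholded list overlapped 345 (89.8%, 86.4 to 92.5), against 88.5%. An IDR of 0.001 or less was reached by 154 (40.1%, 35.3 to 45.1), against 45.4% of the other conservative peaks (42.9 to 48).

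Recovery went with strength. Pooled signal was close to the sum of the replicate signals, as given above, so strength and recovery are not independent measures. Of the strongest 96 peaks, with signals from 117 to 651, 89 overlapped a peak in both replicates and none lacked one in both. Of the next 96, from 81.3 to 116, 48 did and 4 had neither. From 64.9 to 80.3, 3 did and 33 had neither. Of the weakest 96, at 64.7 or less, 7 did and 77 had neither. Of those 7, 6 were second calls beside a stronger summit, so that the overlapped replicate peak is counted for both.

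Replicate 1 signals were the higher in most peaks. Over the 380 peaks with a region in both replicates' ranked lists, the median log2 ratio of replicate 1 to replicate 2 signal was 0.27 (SD 0.46; 95% interval of the median 0.23 to 0.35), and 282 (74.2%, 69.6 to 78.4) were higher in replicate 1. For the other conservative peaks this median was 0.28, with an SD of 0.47, so the offset was shared with sites elsewhere. The median signal was 46.8 in replicate 1 (range 25 to 363) and 37.1 in replicate 2 (21.6 to 276), each over 382 peaks.

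**Figure D3:**
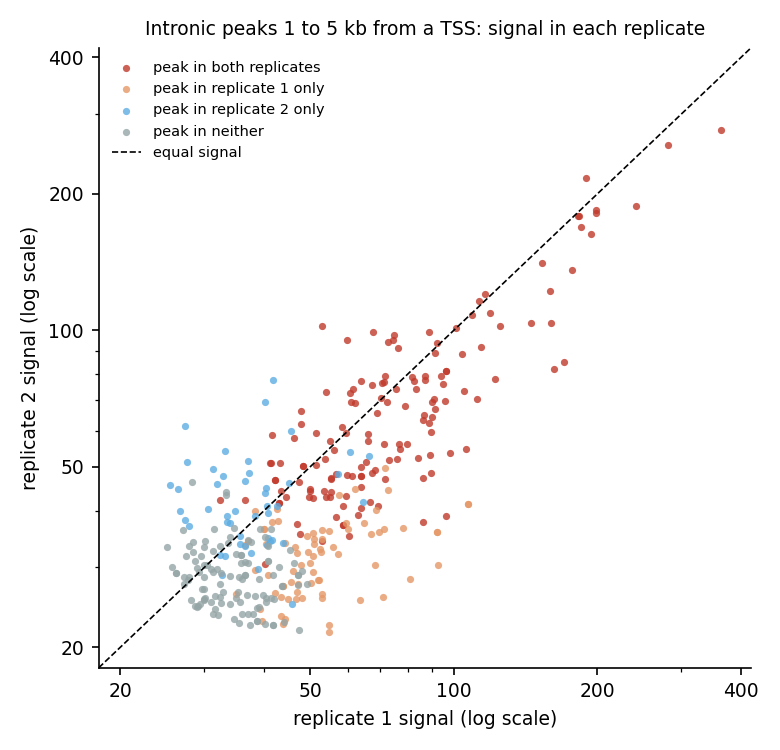
Signal in replicate 1 against signal in replicate 2 (log scales) for the 380 proximal intronic peaks with a region in both lists, coloured by whether a peak of each replicate's thresholded list overlapped them. Most points lie below the dashed line of equal signal, and peaks found in neither list lie at the low end of both axes.

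The strongest proximal intronic peaks lay in genes of several kinds. The highest, in CG11050 (FBgn0031836), had a pooled signal of 651, with 363 in replicate 1 and 276 in replicate 2. Its summit lay 1025 bp downstream of the gene's TSS at chr2L:6612578-6612859, in an intron only 140 bp long and 69 bp from its end, so the 282 bp peak reaches into the exons on either side. It was 1 of only 4 peaks (1.04%, 0.406 to 2.65) whose summit lay within 100 bp of an intron end, a place held by 10.7% of regions that did not pass (10.3 to 11.2). Trl (FBgn0013263), which encodes GAGA factor, a protein that opens chromatin, followed with 541 (281 and 256 in replicates 1 and 2) at chr3L:14759353-14759661, in an intron upstream of the start codon.

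The next peaks by pooled signal were in CG32772 at chrX:4910265-4910479, with 426 (241 in replicate 1 and 188 in replicate 2), and in CG3726 at chrX:5918800-5919019, with 409 (189 and 217). Only in CG3726 among the 10 strongest was replicate 2 the higher. The peak in norpA, which encodes the phospholipase C of phototransduction, had 377 (199 and 184), and lay in the first intron 1392 bp downstream of the TSS. CG9837 had 368 (199 and 181), CG12769 had 359 (194 and 163) and CG32264 had 359 (183 and 179). The peak in upSET, a SET-domain chromatin protein gene, had 359 (185 and 169). ImpL2, which encodes a secreted insulin-binding protein induced by ecdysone, had 356 (182 and 179) at chr3L:4228261-4228487, 1069 bp upstream of the nearest start.

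The next 15 peaks had pooled signals from 200 to 304 and each overlapped a peak in both replicates, as the first 10 did. Kinase genes among them were Pak3 (304), a p21-activated kinase, Tlk (296), the Tousled-like kinase, and for (202), a cGMP-dependent protein kinase. Transcription regulators were NFAT (280), of the NFAT family, CHES-1-like (235), a forkhead factor, sbb (238), a corepressor, mam (203), the coactivator of Notch, and edl (230), an antagonist of Ets factors. Signalling genes were neur (268), a ubiquitin ligase that acts on Notch ligands, wit (259), a type II BMP receptor, Pli (242), the fly Pellino, and pico (258), an adaptor to the actin skeleton. The kinesin gene neb had 221, CG46385 had 217 and CG34417 had 200. The replicates differed most at wit, with 170 in replicate 1 and 85 in replicate 2, and at Pli, with 162 and 82.3, a log2 ratio of 1.00 and 0.98.

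**Figure D4:**
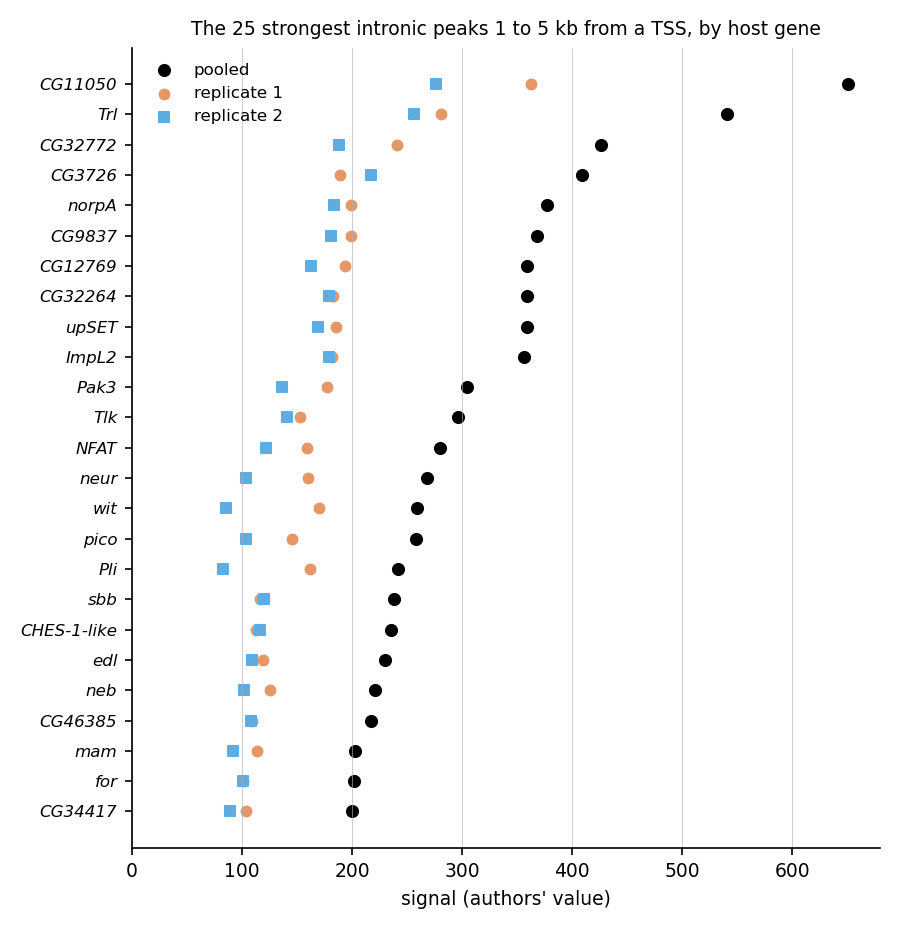
Pooled (black), replicate 1 (orange) and replicate 2 (blue squares) signal of the 25 strongest proximal intronic peaks, named by host gene from the strongest at the top. Pooled values run from 651 at CG11050 to 200 at CG34417, and the replicate values stand apart most at wit and Pli.

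Position within the gene differed from that of regions that did not pass. A first intron of at least 1 transcript held 273 of 384 summits (71.1%, 66.4 to 75.4), against 57.9% of the regions that did not pass (57.2 to 58.7). The nearest TSS belonged to the host gene in 332 (86.5%, 82.7 to 89.5), against 72.4% (71.8 to 73.1). An intron upstream of the start codon held 50.5% (45.5 to 55.5), against 47.1% (46.4 to 47.8), and the summit was downstream of its nearest TSS in 66.4% (61.5 to 70.9), against 67.5% (66.8 to 68.2), and in both of these the intervals overlap. First-intron peaks had a median pooled signal of 80.3 (78.2 to 87.2) and peaks of later introns 81.3 (71.9 to 94).

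The density of the peaks was highest in the step nearest to the start site, with no steady fall beyond it. Per megabase of intron that met the rule there were 25.1 peaks between 1 and 2 kb from a TSS (160 peaks), 18.9 between 2 and 3 kb (92), 17.3 between 3 and 4 kb (68) and 19.6 between 4 and 5 kb (64). Regions that did not pass were spread evenly, at 959 to 976 per megabase in these 4 steps. The median distance was 2370 bp, against 2563 bp for the regions that did not pass. Of all 18295 ranked regions at such places 2.1% (1.9 to 2.32) were conservative peaks, against 1.33% of ranked regions at any place. The share was 1.85% at 251 to 1000 bp from a TSS (1.67 to 2.04), 0.918% in introns beyond 5 kb (0.814 to 1.03) and 5.25% within 250 bp (4.82 to 5.73).

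The X chromosome held the most of these peaks. It had 97 (25.3%, 21.2 to 29.8), while X has 20.2% of the intron sequence that met the rule and 19.6% of the regions that did not pass. Part of the 97 came from a few genes of X: CG1677 held 7, CHES-1-like and Tlk 5 each, and Evi5 and Unc-76 4 each. Whether the higher share holds along the rest of X was not tested. The density was 26.1 per megabase on X, 21.4 on 3L, 20.6 on 3R, 18.8 on 2R and 18.1 on 2L, with 78, 84, 65 and 60 peaks on the autosomal arms in that order. Of the 362 conservative peaks on X 26.8% were proximal intronic, against 20% of the 1437 elsewhere. Per the labels, the sex of the pupae was not collected.

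The 384 peaks lay in 311 host genes, which is 4.44% of the 7011 genes with any intron sequence that met the rule. A single peak was found in 240 of them, 2 in 58, 3 in 7, 4 in 2, 5 in 2 and 7 in 2. These counts include the 20 second calls, so that genes with 2 or more peaks do not always hold separate sites. The share of genes that were hosts followed the length of such sequence, with 0.176% of the 3977 genes that had up to 1 kb of it, 5.63% with 1 to 5 kb, 15.8% with 5 to 20 kb and 35.5% above 20 kb. Peaks per 100 kb were 0.656 in genes with up to 1 kb, and 2.3, 2.13 and 2.2 in the 3 longer classes. Another conservative summit within 1 kb of a TSS was found for 88 of the 311 host genes (28.3%, 23.6 to 33.5), against 9.97% of the other 6700 (9.28 to 10.7) and 10.8% of all 7011. Within classes of length this was 22% (15.3 to 30.7) against 10.9% (9.6 to 12.5) for genes with 1 to 5 kb, and 30.8% (24.1 to 38.4) against 12.9% (10.8 to 15.3) for genes with 5 to 20 kb. Above 20 kb it was 35.9% (22.7 to 51.6) against 19.7% (12.1 to 30.4), with overlapping intervals. The classes do not match length fully. Median lengths of hosts and others were 3.64 and 2.83 kb, 10.3 and 8.54 kb, and 28.4 and 24.6 kb in this order. Above 20 kb the median number of TSSs was 5 in hosts and 3 in others. A summit in an intron beyond 5 kb was also found in 14.8% of host genes (11.3 to 19.2), against 2.03% of the others (1.72 to 2.4), without matching for length.

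The genes with 4 or more of these peaks were CG1677 and shn with 7 each, CHES-1-like and Tlk with 5 each, and Evi5 and Unc-76 with 4 each. All but shn are on X. The zinc-finger gene shn, a partner of the Smad proteins in BMP signalling, held its 7 peaks between 25.5 and 48.1 kb from its outermost start, with pooled signals of 131, 117, 78.9, 73.1, 70.2, 66.6 and 65.6. None of the 7 was among the 25 strongest, and only the first overlapped a peak in both replicates (71.5 in replicate 1 and 56.1 in replicate 2). In CHES-1-like the 5 pooled signals were 235, 161, 139, 112 and 64.7, of which the first 4 overlapped a peak in both replicates. In Tlk they were 296, 123, 89.1, 87.2 and 84.9, and all but the last did.

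Unc-76, an adaptor of the kinesin motor in axonal transport, had 169, 125, 93.3 and 6.65, the last of them a second call beside the peak of 93.3. Evi5, a regulator of Rab11-dependent trafficking, had 133, 112, 83.2 and 63.5, all downstream of the nearest TSS. In CG1677 the signals were 113, 104, 94.9, 81.3, 79.9, 52.4 and 16, at 69.5 to 112 kb from the outermost start of a gene of 125 kb, and all were upstream of the nearest TSS. Its lowest value was again a second call. Runs of peaks with steps of at most 5 kb numbered 50 and held 116 of the 384. These runs include second calls, so that some, as in Eip63E (180 and 2.34), are a peak and its own second call and not separate sites.

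**Figure D5:**
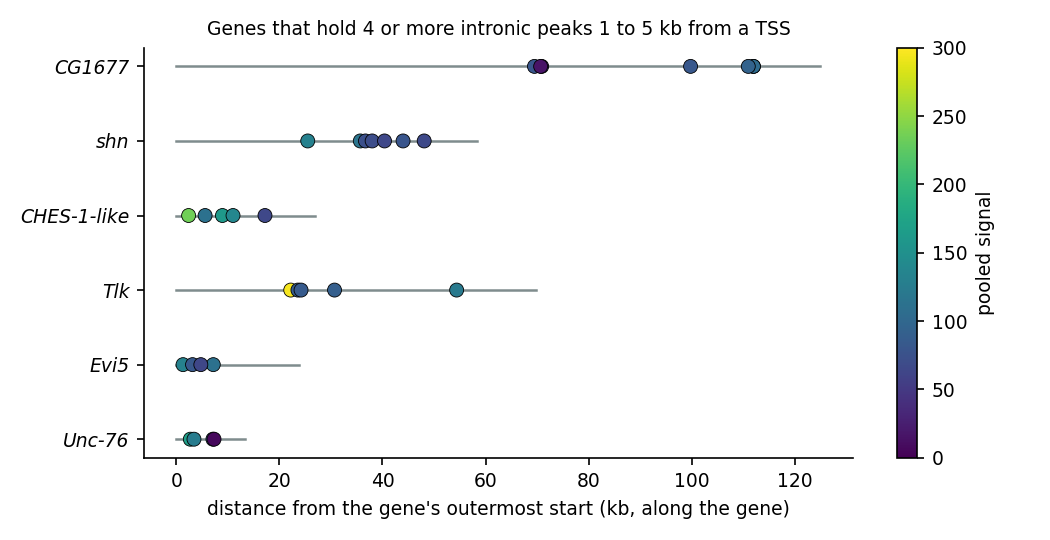
Position of proximal intronic peaks (points) along the 6 genes with 4 or more of them, as distance from the gene's outermost start (kb), coloured by pooled signal, with a line for the gene's length. The 7 peaks of shn stand between 25.5 and 48.1 kb, and those of CG1677 fall into groups far from its outermost start.

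Signalling genes were compared by peaks per 100 kb of intron sequence that met the rule, which was 2.08 over all genes. The 25 gene lists were chosen with earlier results of these data known, and the values are descriptions with no test. Counts and densities of the lists include second calls beside a stronger peak. Among the hosts named below, 1 each was in aop (12.8), wts (5.04), Eip63E (2.34), ftz-f1 (16.5), Atg1 (7.22), zfh1 (2.8) and kirre (3.48). Of the 23 genes of the EGFR and Ras-MAPK list with such sequence, 8 were hosts, with 10 peaks or 8.07 per 100 kb. The strongest were edl with 230 (119 in replicate 1 and 109 in replicate 2), sty, which encodes the inhibitor Sprouty, with 186 (91.3 and 89.2), and the kinase gene Raf with 169 (76.4 and 91.6). The remaining hosts, named after their values were seen, were S (Star), needed for export of the ligand, with 131, the receptor Egfr itself with 107, the secreted inhibitor aos with 95.9, the Ets repressor aop with 87.5 and the ligand-processing protease ru with 87.4. These 8 hosts have different roles in the pathway, and most of the 23 genes held none of these peaks. The 2 peaks of aos lie in CG33158 as well. Of the 10 peaks, 9 lay in a first intron and 1 was the second call at aop.

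In the BMP and activin list 4 of 20 genes were hosts, with 10 peaks or 9.27 per 100 kb, of which shn alone supplied 7. The strongest was that of the receptor gene wit, 259. Dad, which encodes the inhibitory Smad, had 91.6 (53.5 in replicate 1 and 44.3 in replicate 2), and the receptor gene put, named after its values were seen, had 76.9 (35.6 and 33.7). In the Hippo list 4 of 21 were hosts, with 7 peaks or 7.54 per 100 kb, all in first introns. Of the 7 peaks, 1 was the second call at wts. The hosts are named next. They were the kinase gene wts with 3 peaks, the strongest of 97.9 (48.2 and 50.1), crb with 97.5 (55.1 and 42.9), which encodes the apical polarity protein Crumbs, kibra with 2 peaks, the strongest of 97.1 (41.2 and 50.9), and, named after its values were seen, ex with 61.2 (31 and 25.1). These lists are short, and the intervals of their shares of host genes are wide: 34.8% (18.8 to 55.1) for EGFR, 20% (8.07 to 41.6) for BMP and 19% (7.67 to 40) for Hippo, against 4.44% of all genes. These shares were not matched for the length of such intron sequence. Among all genes, 0.176% were hosts with up to 1 kb of it, 5.63% with 1 to 5 kb and 15.8% with 5 to 20 kb. The 23 EGFR, 20 BMP and 21 Hippo genes held 124, 108 and 92.8 kb of it in all.

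The remaining pathway lists had fewer peaks, from 3 to 5 each, so that their densities rest on few peaks. Notch had 4 hosts of 20 (4.77 peaks per 100 kb), led by neur with 268, mam with 2 peaks of 203 and 182, and the ligand gene Delta with 79.5 (52.9 in replicate 1 and 26.2 in replicate 2). The fourth, named after its value was seen, was numb, an inhibitor of Notch, with 62.2. Wnt had 4 of 24 (2.97), led by the ligand gene Wnt10 with 111, the kinase gene sgg with 72.5 and the inhibitor nkd with 72.4. Hedgehog had 3 of 15 (3.79), the co-receptor gene boi with 71.9, the receptor gene ptc with 71.2 and rdx with 60.7. JAK-STAT had 2 of 10 (4.4), both genes of inhibitors, Ptp61F with 87.4 and Socs36E with 79.5. The strongest peak of Ptp61F is the same one as that of ru, since the genes overlap there. JNK and AP-1 had 3 of 15 (5.3), the kinase gene msn with 102, raw with 78.2 and kay, the fly Fos, with 76.2. Insulin and TOR had 3 of 20 (6.22), sima with 132, the kinase gene S6k with 66.9 and Sik3 with 64.9.

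Ecdysone, the steroid that drives metamorphosis, is at work in the pupa. In that list 5 of 31 genes were hosts (16.1%, 7.09 to 32.6), against 4.44% of all genes. This share was not matched for length. Among all genes with 5 to 20 kb of such sequence 15.8% were hosts, and these 31 genes held 245 kb in all. Their 9 peaks, or 3.67 per 100 kb, include the second calls at Eip63E and ftz-f1. The hosts were ImpL2 with 356 and 112, the nuclear receptor gene Hr4 with 189 (92 in replicate 1 and 93.7 in replicate 2), and Eip63E, a cyclin-dependent kinase gene, with 180 (96.3 and 81.4). EcR, the ecdysone receptor gene, had 79 (52.8 and 25.6) and the nuclear receptor gene ftz-f1 had 58.1 (36.5 and 28.9), both named after their values were seen. Chromatin and insulator genes had 3 hosts of 29 (10.3%, 3.58 to 26.4), an interval that holds the 4.44% of all genes. They had 6.52 peaks per 100 kb, from only 5 peaks, of which Trl and psq had 2 each. The strongest were Trl at 541, psq at 78.6 and kis, a chromatin remodeller gene, at 73.4. Sensory organ and neuronal fate genes had 4 of 19 (3.25), led by neur, ttk with 78.8 and numb.

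RNA binding and splicing genes had 6 hosts of 37 (2.13 per 100 kb, close to all genes), led by mbl with 187, pum with 124 and shep with 118.

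Other lists with much intron sequence had few peaks. Ion channel and synapse genes had 1 host of 38, the potassium channel gene Irk1 with 56 (27.2 in replicate 1 and 28.6 in replicate 2), in 334 kb, or 0.3 per 100 kb. Axon guidance and adhesion genes had 4 hosts of 47 in 547 kb, or 1.1 per 100 kb, with Ten-a at 157, kirre at 136 and Ptp10D at 102. The list of homeobox regulators had 2 of 49 (1.29), Pdp1 with 131, whose protein is of the bZIP class, and zfh1 with 112, which has zinc fingers and a homeodomain. Muscle and mesoderm genes had 1 of 29, Mef2 with 90.1, and epithelium and trachea genes had 0 of 22 in 128 kb. Chemosensory receptor genes had 0 of 20, but only 15.6 kb of sequence that met the rule, in which few peaks could fall.

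Other lists had 1 or 2 hosts each, with 1 or 2 peaks. Peaks per 100 kb were 5.3 for apoptosis and autophagy genes and 4.31 for cuticle genes, both above the 2.08 of all genes. They were 2.22 for glia genes, 1.31 for PRDM and Kruppel-like factors and 1.19 for blood and immunity genes. Blood and immunity genes had 1 host of 22, the NF-kappaB gene Dif with 86.2. Glia genes had 2 of 16, loco with 119 and ttk. Apoptosis and autophagy genes had 1 of 18, the kinase gene Atg1 with 2 peaks, the stronger of 74 and the other a second call. Cuticle genes had 2 of 16, t with 104 and Cpr76Bc with 49.3. In the list of PRDM and Kruppel-like factors 1 of 11 was a host, bowl with 53.1 (27.9 in replicate 1 and 28.6 in replicate 2), which encodes an odd-skipped zinc-finger protein. In all, 105 of the 384 peaks lay in a listed gene. The share of all intron sequence that met the rule in listed genes is not given here, so no excess can be read from this count. The lists share some genes, such as neur and ttk.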

How the data were processed

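The deposited files were BED lists of regions on dm6, per the labels; neither aligner nor peak caller is named in the labels (not given in the sources used here). The authors deposited for each region a signal value, a score (the scaled IDR, with thresholded lists starting at 830, an IDR of 0.01) and, in ranked lists, the −log10 of the IDR. The conservative list came from the pooled samples, and each replicate had its own lists.

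Summits were start plus deposited offset. TSSs and exons of 13945 protein-coding genes were from Ensembl 115, and sequence and gene IDs from RefSeq and Ensembl for the same assembly. Peaks were compared by overlaps of at least 1 bp. A replicate's signal was that of the strongest overlapping region in its ranked list. G and C content and 29 sequence words were taken in 100 bp windows at the summit and centred 300 bp to each side. Of 748 gene list entries, 1 had no match, and 1 list is not reported here.

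With 1 group no test was made. Intervals are 95% Wilson intervals, or order-statistic intervals for medians, and cover counting error only; regions are not replicates. Named genes are hosts of the 25 strongest peaks, up to 3 hosts per list and hosts of 4 or more peaks. The peak set, lists and words were chosen with earlier results of these data known. Code was tested on simulated positions. Python 3.11.15, pandas 2.3.3 and numpy 2.4.6 were used.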

Additional observations from a re-analysis of the deposited data

How the results depend on the processing

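Of 82 recomputed values, 60 stayed within the interval of the reported value or, for counts, within 1.5 times it, and 22 moved, none with a change of direction. With an IDR of 0.001 or less, 154 peaks in 135 host genes were left, with a median pooled signal of 131, a median G and C difference of -12.8 points, and overlap with replicate 1 in 95.5%, replicate 2 in 89.6% and both in 85.1%. Above 2 kb from a TSS, 224 peaks in 188 host genes were left, with a median signal of 78.1, overlap with replicate 2 in 45.5%, the nearest TSS in the host gene in 82.6%, and 1.87% of ranked regions passing. With 1 TSS a gene, 2.33% passed, first introns held 77.3% and the nearest TSS was the host's in 77.1%. The G and C difference was -7.25 with 200 bp windows and -7.25 with flanks at 500 bp. The ratio from the ranked list of the pooled samples was not run, since no header names a replicate there. The other thresholded list gave a log2 replicate ratio of 0.35. The cause of these shifts was not tested, beyond the fewer peaks that stricter rules leave. Using only 1 replicate's own list gave 201 to 259 peaks, 181 to 218 host genes and a G and C difference of -12.5 to -11, with first introns at 69.9% to 72.6% and the host's TSS nearest in 87.3% to 87.6%. An alternative chosen after seeing the data left out second calls beside a stronger summit, and moved no value by this measure (364 peaks in 310 host genes). No paired analysis was possible because there was only 1 group. Depth is unknown, so precision beyond these counts cannot be given.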

Other observations

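No proximal intronic peak lay on chromosome 4, which has 0.236 Mb of intron sequence that met the rule and 20 regions that did not pass; 0 of 384 allows a share of up to 0.781% by the limit of 3 counts. None lay inside an annotated transposable element, against 0.582% of regions that did not pass (0.481 to 0.705), and the same limit applies. A non-coding gene held 19 of the 384 summits (4.95%, 3.19 to 7.6), set beside 3.05% in the set that did not pass (2.8 to 3.31), and 15 (3.91%, 2.38 to 6.34) lay within 1 kb of a non-coding TSS, against 3.63% (3.37 to 3.92). More than 1 protein-coding host gene held 24 summits (6.25%, 4.24 to 9.13), against 4.65% (4.35 to 4.97).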
